A study of Rattus norvegicus with 6 samples.

Results

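Col1a1, Col1a2, Col3a1, Col5a1, Col5a2, Col5a3 and Col12a1 encode the collagen chains of ordinary connective-tissue fibrils: the chains of types I, III and V, and the type XII chain that sits on the fibril surface. They were chosen by name. Every probe set of the array annotated to exactly 1 of these symbols was taken, which gave 7 of the 14217 named genes and 13 of the 31042 probe sets that are not array controls. Of these 13 probe sets, 10 were bright enough to be tested.

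A fibrillar collagen is made as a long procollagen chain, joined with others into a triple helix in the endoplasmic reticulum, exported, trimmed of its propeptides outside the cell, and then packed into fibrils that lysyl oxidases crosslink. Type I collagen, built from the Col1a1 and Col1a2 chains, is the bulk of most fibrils, and type III, built from Col3a1 alone, mixes with it in soft tissue. Type V chains start new fibrils and limit their width, and type XII links the fibril surface to the surrounding matrix. Fibroblasts are the usual source, and cultured epithelial lines can make them as well.

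Transcripts were measured with 1-colour Affymetrix arrays in RK3E cells, an epithelial line from rat kidney that an adenoviral oncogene had immortalised. The 4 GLI1 arrays carried RNA of RK3E cells transfected with an expression construct for GLI1, a transcription factor that Hedgehog signalling activates, from foci that were picked and kept in culture. Of these, 1 is labelled clone I, 2 are labelled clone II and 1 has no clone named, so the GLI1 group stands for at most a few foci. The 2 parental arrays carried RNA of RK3E cells without GLI1, and the labels mention no empty vector. All cells were grown in DMEM with serum, and the submitters call the samples biological replicates without saying how cultures were kept apart, so the p-values reflect only how far these arrays spread. In RNA of whole cultures, fewer cells of a type and less RNA per cell cannot be told apart.

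Values are MAS5 signals, a brightness per probe set on a linear scale. The array medians ran from 568 to 696. Gli1 read 9092, 3356, 3500 and 4611 on the GLI1 arrays and 36 and 90.8 on the parental arrays, as the labels say. The ratio of the GAPDH signal at the 3′ end to that at the 5′ end, which rises as RNA breaks down, was 7.52 on clone II replicate 1 and 3.66 on parental replicate 1, and 1.39 to 2.09 on the other arrays. Of the epithelial markers, Epcam and Krt8 were tested, while Cdh1, Krt18, Krt19, Krt7 and Cldn4 lay below the signal filter on average, so the epithelial label rests on few measured markers.

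Annotated promoter windows of collagen genes with a large and with a smaller fall are shown first, since the promoter is where the usual collagen activators act. RefSeq (assembly GRCr8) gave promoter sequence for 4 of the 7 genes, and the 250 bases before the annotated start of 3 of them are printed 5′ to 3′ on the gene's strand. Col1a2 (chr4:33518307-33518556, plus strand) stands for the genes of large fall, and Col5a1 (chr3:31606630-31606879, plus strand) and Col5a2 (chr9:55090152-55090401, minus strand) for those of smaller fall. Capitals mark matches on either strand to short promoter elements: the TATA box, searched as TATAAA, the CCAAT box, searched by that name, and the GC box, searched as GGGCGG.
Col1a2: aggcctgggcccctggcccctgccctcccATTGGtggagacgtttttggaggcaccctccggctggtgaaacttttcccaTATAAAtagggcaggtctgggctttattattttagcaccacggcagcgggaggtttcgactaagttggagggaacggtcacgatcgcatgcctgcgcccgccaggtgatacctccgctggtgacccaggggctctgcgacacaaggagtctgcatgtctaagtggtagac
Col5a1: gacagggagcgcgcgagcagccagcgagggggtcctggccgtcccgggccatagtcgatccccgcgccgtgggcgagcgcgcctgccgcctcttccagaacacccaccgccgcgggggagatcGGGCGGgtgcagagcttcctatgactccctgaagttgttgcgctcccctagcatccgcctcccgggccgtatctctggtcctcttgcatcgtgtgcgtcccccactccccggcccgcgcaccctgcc
Col5a2: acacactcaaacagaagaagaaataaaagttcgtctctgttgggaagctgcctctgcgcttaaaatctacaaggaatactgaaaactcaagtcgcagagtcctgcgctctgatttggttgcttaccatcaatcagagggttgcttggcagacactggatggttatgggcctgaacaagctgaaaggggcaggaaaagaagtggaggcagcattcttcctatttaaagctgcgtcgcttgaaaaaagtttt
The Col1a2 window held the TATA box letters at 170 to 165 bases before the annotated start. It held those of the CCAAT box, on the other strand, at 221 to 217 bases. Whether transcription begins at the annotated starts was not tested. A window can therefore hold transcribed bases and miss part of the proximal promoter. The Col5a1 window held a GC box at 127 to 122 bases, and the Col5a2 window held none of these letters. Over all 33469 promoter windows of that length, 12.9% held the TATA box letters, 34.0% those of the CCAAT box and 30.5% those of the GC box. The letters GACCACCCA, which GLI proteins are known to bind, were searched on both strands as well, occurred in 0.338% of the windows, and did not occur in those of Col1a2, Col5a1, Col5a2 or Col5a3. The base composition differed too, with a GC content of 58.4% in the Col1a2 window, 71.6% in Col5a1 and 44.8% in Col5a2. A match describes letters only and is neither a binding site nor a cause.

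GLI1-transformed against parental cells is the comparison the series was designed for, and it asks which transcripts differ after transformation. All 10 tested collagen probe sets fell, where "fell" and "rose" mean an adjusted p under 0.05 in limma with Benjamini-Hochberg adjustment over 18625 probe sets. Among all tested probe sets 7.25% fell and 5.84% rose (1351 and 1087). When the array medians were set equal in place of the MAS5 scaling, 944 fell and 1454 rose, and the 10 collagen probe sets still fell. The median log2 difference of the 10 was -4.50, beside 0.00 over all 18625 (range of the 10, -7.03 to -1.32). The falls came in 2 sizes: Col1a1, Col1a2 and Col3a1 were 45.4-fold to 131-fold lower, and Col5a1 and Col5a2 were 2.50-fold to 6.49-fold lower, with Col12a1 between them at 11.3-fold. Of all 13 probe sets, 12 had every GLI1 array below both parental arrays, as did 20.2% of the tested probe sets.

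Col1a2, the second chain of type I collagen, gave 1591 where no clone was named, 1073 in clone I, and 861 and 862 in clone II, against 59267 and 53226 on the parental arrays. Every GLI1 array was far below both parental arrays, and the clone II arrays were lowest. Log2 means were 10.05 ± 0.42 (SD, n = 4) and 15.78 ± 0.11 (SD, n = 2), a 52.9-fold fall (log2 -5.73, SE 0.27, 95% confidence interval -6.34 to -5.11, limma adjusted p = 1.36e-05). The other probe set of the gene fell 63.8-fold (log2 -6.00, SE 0.29, limma adjusted p = 1.36e-05), so both readings of this chain moved alike.

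Col1a1, the chain that makes up most of the type I helix, read 2215 with no clone named, 926 in clone I, and 660 and 311 in clone II, against 37845 and 35385 on the parental arrays. The groups were far apart, yet the GLI1 arrays themselves spread over 2.83 log2 units, more than 3 times the 0.89 units of Col1a2. Log2 means were 9.65 ± 1.18 (SD, n = 4) and 15.16 ± 0.07 (SD, n = 2), a 45.4-fold fall (log2 -5.51, SE 0.62, interval -6.90 to -4.11, limma adjusted p = 0.000919). A dimmer probe set of Col1a1 gave 2455, 495, 183 and 170 on the GLI1 arrays in the same order, and 17676 and 42325 on the parental arrays. It fell 62.1-fold (log2 -5.96, SE 0.96, adjusted p = 0.00504), and without parental replicate 2 its adjusted p was 0.0655, with a difference of -5.33.

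Col3a1, the only chain of type III collagen, gave the largest fall of the 7 genes. Its signal was 749 with no clone named, 879 in clone I, and 244 and 415 in clone II, against 70958 and 62237 on the parental arrays. Here the lowest values were again those of clone II, and even the highest GLI1 array was 75.6-fold below the parental mean. Log2 means were 8.99 ± 0.85 (SD, n = 4) and 16.02 ± 0.13 (SD, n = 2), a 131-fold fall (log2 -7.03, SE 0.46, interval -8.08 to -5.98, limma adjusted p = 6.99e-05). This was the second most negative difference among the 18625 tested probe sets. With 32 added to every signal before the log, which damps ratios of dim signals, the folds were 122 for Col3a1, 51.4 for Col1a2 and 43.3 for Col1a1.

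**Figure D1:**
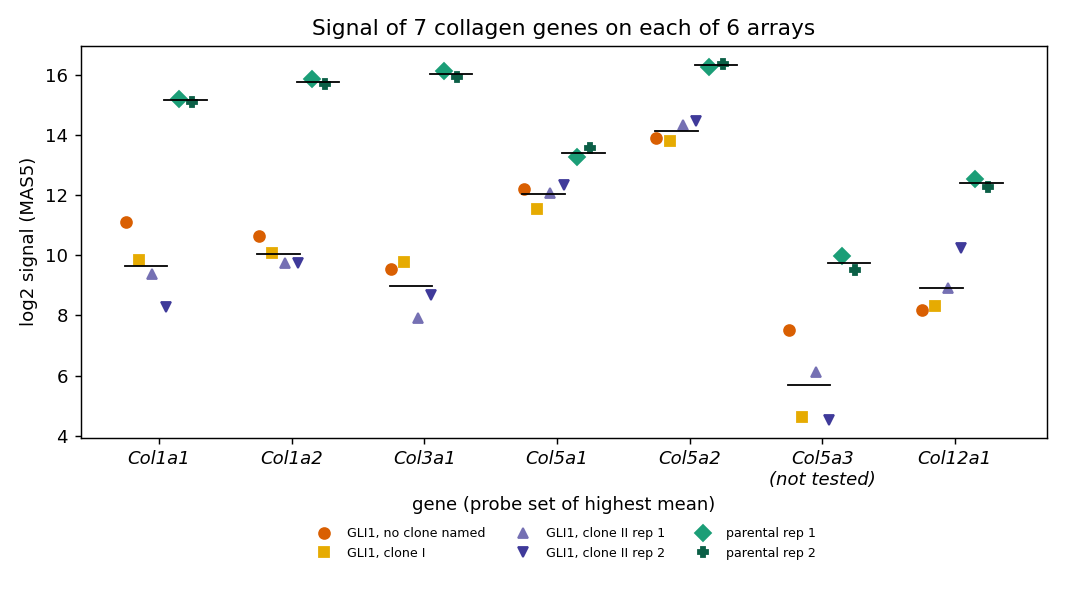
Log2 MAS5 signal (vertical axis) of the 7 collagen genes (horizontal axis, probe set of highest mean for each) on each of the 6 arrays, with a bar at each group mean. In each gene the 4 GLI1 arrays lie below both parental arrays, by a mean of 7.03 log2 units in Col3a1 and 1.37 in Col5a1.

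Among the type V chains, Col5a2 and Col5a1 fell by far less. Col5a2, a chain that joins Col5a1 in the common form of type V collagen, read 15433 with no clone named, 14310 in clone I, and 20763 and 22383 in clone II, against 79215 and 84730 on the parental arrays. In contrast to the type I and III chains, the clone II arrays were the highest of the GLI1 arrays on this probe set. Log2 means were 14.13 ± 0.32 (SD, n = 4) and 16.32 ± 0.07 (SD, n = 2), a 4.58-fold fall (log2 -2.19, SE 0.21, interval -2.67 to -1.72, limma adjusted p = 0.000472). The other Col5a2 probe set fell 6.49-fold (adjusted p = 7.44e-05). It read 7805 with no clone named, 6820 in clone I, and 7207 and 9544 in clone II, against 52006 and 48937 on the parental arrays, so here clone II replicate 1 lay below the array with no clone named.

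Col5a1, the chain found in nearly all type V molecules, gave the smallest fall. It read 4764 with no clone named, 2983 in clone I, and 4313 and 5194 in clone II, against 9856 and 12075 on the parental arrays, so the groups stayed apart with a narrow gap. Log2 means were 12.04 ± 0.35 (SD, n = 4) and 13.41 ± 0.21 (SD, n = 2), a 2.58-fold fall (log2 -1.37, SE 0.25, interval -1.93 to -0.81, limma adjusted p = 0.00851). The other probe set read 4789, 2245, 2094 and 3673 on the GLI1 arrays and 6752 and 8406 on the parental arrays, and fell 2.50-fold (adjusted p = 0.0351). These calls hung on single arrays: without parental replicate 1 or 2 the adjusted p was 0.0612 or 0.0931 for the brighter probe set and 0.156 or 0.212 for the other. The latter also missed the threshold without clone I (0.0795) or clone II replicate 1 (0.0545).

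Col5a3, a type V chain of more limited tissue range, lay below the signal filter on average and was not among the 10 tested. Its signal was 183 with no clone named, 24.5 in clone I, 69.5 and 23.1 in clone II, whereas the parental arrays read 1016 and 738. The groups did not overlap, and the low GLI1 values are dim enough that their size is uncertain. Fitted without a filter, over 31042 probe sets of which 4.15% fell, it was 16.7-fold lower (log2 -4.06, SE 0.92, limma adjusted p = 0.0293), and 11 of the 13 collagen probe sets then fell. The filter used the mean over all arrays, and each of the 10 tested probe sets had a GLI1 mean above it too, so none entered through its parental arrays alone.

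Col12a1, the fibril-associated chain, read 288 with no clone named, 316 in clone I, and 479 and 1216 in clone II, against 5957 and 4952 on the parental arrays. Here the order within the GLI1 group ran opposite to that of type I collagen, with clone II replicate 2 highest. Log2 means were 8.91 ± 0.95 (SD, n = 4) and 12.41 ± 0.19 (SD, n = 2), which made the fall 11.3-fold (log2 -3.50, SE 0.53, interval -4.71 to -2.30, limma adjusted p = 0.00393). Without parental replicate 1 the adjusted p was 0.0613. Of the untested probe sets of this gene, the brighter read 43 to 158 on the GLI1 arrays and 419 and 339 on the parental arrays, and the dimmer read 13.5 to 42 and overlapped the parental values of 33.7 and 364. Neither passed when fitted without a filter (adjusted p = 0.0868 and 0.296).

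Leaving out either parental array left 7 of the 10 falls called, and in such a fit the remaining parental array is assumed to vary as the other arrays do. Leaving out both arrays of highest GAPDH ratio left 6: both Col1a2 probe sets, both Col5a2 probe sets, the brighter Col1a1 probe set and Col3a1. Against parental cells the differences kept their sign in all alternatives run, and that of the brighter Col1a1 probe set ran from -5.99 to -5.05 over all alternatives.

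**Figure D2:**
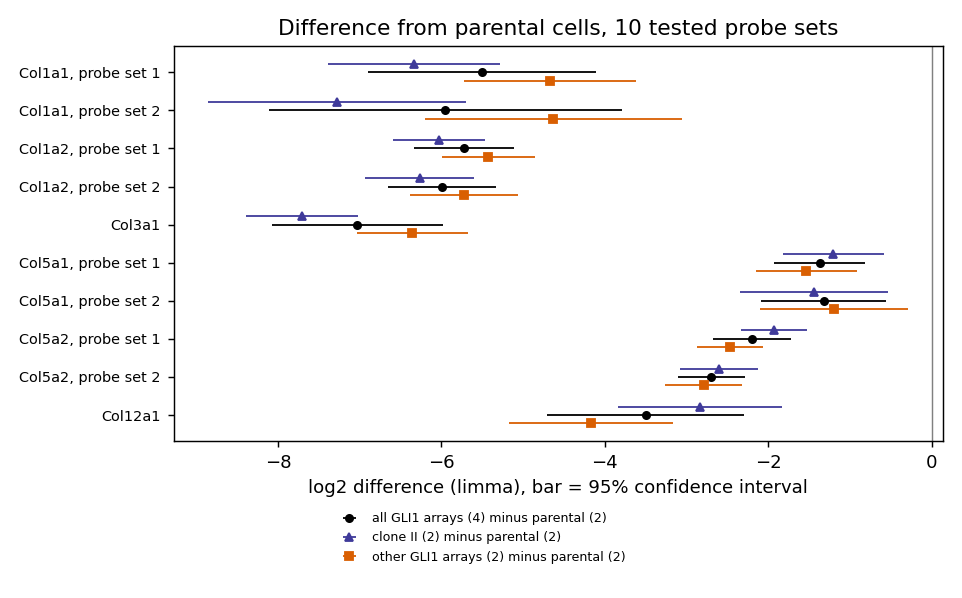
Log2 difference from the parental arrays (horizontal axis, bars are 95% confidence intervals from limma) for the 10 tested probe sets, for all 4 GLI1 arrays, the 2 clone II arrays and the 2 other GLI1 arrays. The type I and III probe sets lie between -7.71 and -4.63, the Col12a1 probe set between -4.17 and -2.83, and the type V probe sets between -2.79 and -1.20.

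Clone II could be set against parental cells by itself, as could the other GLI1 arrays together. In clone II 9 of the 10 probe sets fell, beside 5.74% of all tested probe sets, and in the other GLI1 arrays 9 of 10 fell, beside 6.83%. These comparisons share the parental arrays. In clone II 1069 of all probe sets fell and 743 rose, or 766 and 1071 with the array medians set equal, where 9 of the 10 were called as well. The dimmer Col5a1 probe set was the exception in each (adjusted p = 0.0573 in clone II and 0.0863 in the others). In clone II, Col12a1 was not called without parental replicate 1 (adjusted p = 0.0784), nor was the brighter Col5a1 probe set without replicate 1 or 2 of clone II (0.147 and 0.0686) or of the parental cells (0.115 and 0.174). The dimmer Col5a1 probe set was called there without the array with no clone named (0.0288) or without clone I (0.0269). In the other GLI1 arrays the brighter Col5a1 probe set was not called without parental replicate 1 (0.0526) or 2 (0.0728), and the dimmer was called without the array with no clone named (0.0336).

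Side by side, Col3a1 was 209-fold below parental cells in clone II and 81.9-fold below in the other GLI1 arrays. Col1a1 was 80.8-fold and 25.6-fold below, and Col1a2 65.2-fold and 43.0-fold below. For the others the order was reversed, with Col12a1 7.12-fold below in clone II and 18.0-fold below in the other GLI1 arrays, and Col5a2 3.80-fold and 5.51-fold. The Col5a1 probe sets went opposite ways, the brighter at 2.31-fold and 2.89-fold and the dimmer at 2.72-fold and 2.30-fold.

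The direct test of clone II against the other GLI1 arrays called 0 of the 10 probe sets in limma after adjustment, beside 0.129% of all tested probe sets. Those were 21 lower and 3 higher in clone II, against 26 and 11 with the array medians set equal and 7 and 3 after quantile normalization. At an unadjusted p under 0.05 it marked 6 of the 10. The share of all tested probe sets under that threshold is not given here, so this count is not read as a difference between clones. The log2 difference was -1.35 for Col3a1 (interval -2.03 to -0.67, adjusted p = 0.18) and -1.66 for Col1a1 (interval -2.71 to -0.61, 0.303). It was -0.60 for Col1a2 (interval -1.17 to -0.04, 0.552), 0.54 for Col5a2 (interval 0.13 to 0.94, 0.416), 0.33 for Col5a1 (interval -0.29 to 0.94, 0.787) and 1.34 for Col12a1 (interval 0.33 to 2.34, 0.416). A difference between clones was therefore not shown for any collagen gene at this number of arrays, and the intervals leave room for differences of over 4-fold in Col1a1, Col3a1 and Col12a1. Without clone I, the dimmer Col1a1 probe set was called (log2 -3.80, adjusted p = 0.0368), but clone II was then set against 1 array, which is assumed to vary as the clone II and parental arrays do.

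Array by array, the fold below the parental mean shows how uneven the loss was among GLI1 arrays. Col1a1 was 16.5-fold below it with no clone named, 39.5-fold in clone I, and 55.5-fold and 118-fold in clone II, while Col1a2 stayed between 35.3-fold and 65.2-fold. Col3a1 was 88.7-fold, 75.6-fold, 272-fold and 160-fold below in the same order. Col12a1 went the other way, at 18.8-fold, 17.2-fold, 11.3-fold and 4.47-fold. By the brightest probe set of each gene Col5a1 and Col5a2 varied least, from 2.10-fold to 3.66-fold and from 3.66-fold to 5.73-fold. The dimmer Col5a1 probe set ranged over 1.19 log2 units among the GLI1 arrays, more than either Col1a2 probe set (0.89 and 0.95).

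**Figure D3:**
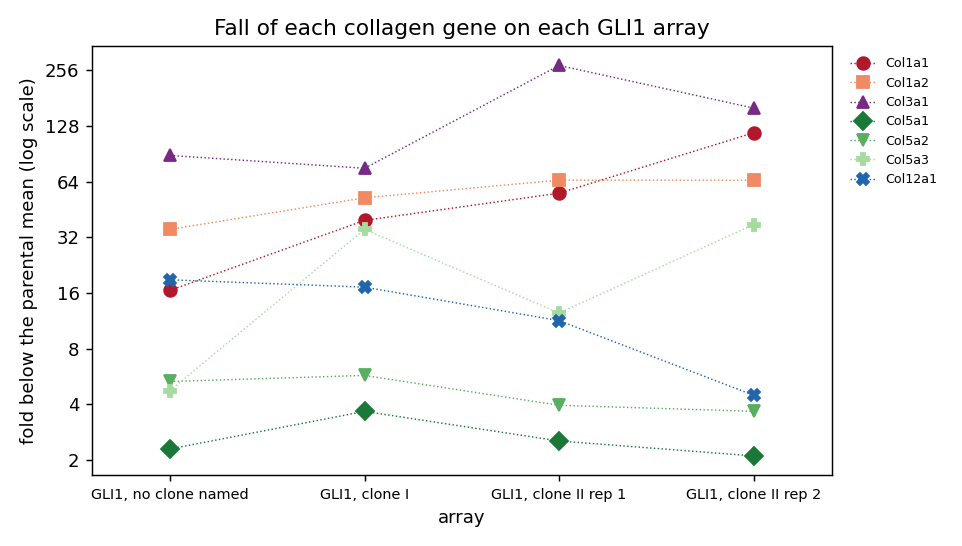
Fold below the parental mean (vertical axis, log scale) of each collagen gene on each of the 4 GLI1 arrays (horizontal axis), with dotted lines only to join the points of a gene. Col3a1 is highest on each array, up to 272-fold, Col5a1 lowest, down to 2.10-fold, and Col12a1 crosses from above Col1a1 with no clone named to below it on the other arrays.

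The change of a gene relative to another on the same array is unaffected when an array is rescaled by a constant. The mean of the type I and III genes fell 19.8-fold more than the mean of Col5a1 and Col5a2 (log2 -4.31). The 4 GLI1 arrays gave -3.42 with no clone named, -3.56 in clone I, and -4.98 and -5.27 in clone II, relative to the parental mean, and the parental arrays 0.17 and -0.17. The groups did not overlap, and the two-sided exact permutation p was 0.133, the smallest that 4 arrays against 2 allow (adjusted over 6 such ratios, 0.16). An effect of any size therefore stays above 0.05 in this test.

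By the brightest probe set of each gene, the signals of partner chains did not all shift alike. Col1a1 relative to Col1a2, the partner chains of type I, changed by 0.22 log2 units, with GLI1 arrays on both sides of the parental ones, from -0.85 on clone II replicate 2 to 1.10 with no clone named (exact permutation p = 0.667). Col5a1 relative to Col5a2, the partner chains of type V, was 1.77-fold higher on the GLI1 arrays, which did not overlap the parental ones (exact permutation p = 0.133). Between the Col5a2 probe sets the gap was 0.98 to 1.53 log2 units on the GLI1 arrays and 0.61 and 0.79 on the parental ones. A shift without overlap thus occurred within the same gene too, and the type V shift cannot be told apart from a difference between probe sets. Col3a1 relative to Col1a2 was 2.47-fold lower and Col12a1 relative to Col1a2 4.68-fold higher, both without overlap and with the same exact permutation p. In the annotation Col3a1 and Col5a2 are neighbouring protein-coding genes, yet the former fell 131-fold and the latter 4.58-fold. Col1a2 relative to Col5a2 fell 11.6-fold.

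Among 10234 other genes, those whose profile over the 6 arrays was most like the mean profile of Col1a1, Col1a2 and Col3a1 were Tgfb3, Mgp, Kctd12, Axl and Cav1. Likeness was the root mean square distance between profiles centred on their own means, in log2 units, and it was 0.43 for Tgfb3, 0.65 for Mgp, 0.66 for Kctd12, and 0.68 for both Axl and Cav1. The collagen genes themselves stood at 0.30 for Col1a2, 0.48 for Col1a1 and 0.56 for Col3a1, which form the mean, and at 1.67 for Col12a1, 1.97 for Col5a2 and 2.32 for Col5a1. Tgfb3, a transforming growth factor beta ligand, read 187 to 415 on the GLI1 arrays and 14226 and 11482 on the parental arrays, and fell by 5.53 log2 units (adjusted p = 4.47e-05). The receptor kinase gene Axl fell by 4.97 and Kctd12 by 5.18. The likeness rests mostly on the gap between the groups. Since the genes were chosen for a profile with this gap, their falls and the adjusted p are not separate support. Tgfb3, Mgp and Cav1 also had GLI1 means below the signal filter (log2 8.11, 6.78 and 7.74). They were tested only through their parental arrays.

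The genes that act on collagen were read as lists by role, beside 10240 genes in all, of which 7.75% fell and 7.80% rose, with a median log2 difference of 0.07. Of the other collagens, the fibrillar chains Col27a1 (-1.68, adjusted p = 0.105) and Col24a1 (1.47, 0.144) did not pass, and Col2a1, Col11a1 and Col11a2 lay below the filter. Without the array with no clone named, Col27a1 passed (0.031). Among 5 tested fibril-associated collagens 2 rose, 1 fell and 2 did not pass, with a list median of 0.80. The cartilage chain Col9a3 read 3445 to 12626 on the GLI1 arrays and 210 and 176 on the parental arrays, and Col9a2 4921 to 9682 and 1559 and 1442, so both were far higher in each GLI1 array. Col9a2 rose by 2.0 (adjusted p = 0.00315) and Col9a3 by 5.07 (0.000591). The parental mean of Col9a3 lay below the signal filter (log2 7.59), so it was tested only through its GLI1 arrays and had to differ. Its adjusted p and its place among the 2 rises do not stand as support.

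Col16a1 fell by 1.25 (adjusted p = 0.0259), a call that was lost without parental replicate 1 (0.214), parental replicate 2 (0.113), clone I (0.0654) or clone II replicate 2 (0.0513). Col14a1 (-0.95, 0.387) and Col22a1 (0.80, 0.361) did not pass. Of 12 tested network and other collagens, only the basement membrane chain Col4a5 passed, falling by 1.68 (adjusted p = 0.00159), and the list median was 0.41. Its signal was 9491 to 14820 on the GLI1 arrays and 41672 and 42266 on the parental arrays. The main basement membrane chains Col4a1 (0.49, 0.278) and Col4a2 (0.40, 0.518) and the beaded-filament chains Col6a1 (0.43, 0.718), Col6a2 (0.62, 0.447) and Col6a3 (0.43, 0.623) did not pass. Col4a1, Col4a2 and the Col6 genes were named after their values were seen.

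Inside the cell, most of the procollagen machinery did not pass. Of 16 tested genes for modification and folding, 3 fell, 1 rose and 12 did not pass, with a list median of -0.45. P4ha3, a subunit of a prolyl hydroxylase that stabilises the helix, was the main exception. It read 437 to 1088 on the GLI1 arrays and 11525 and 10617 on the parental arrays, and fell 15.0-fold (log2 -3.91, SE 0.35, adjusted p = 0.000297). The lysyl hydroxylase gene Plod1 rose 3.91-fold, from 8675 and 8421 to between 24538 and 50140 (adjusted p = 0.00225). The prolyl hydroxylase gene P3h1 fell by 1.03 (adjusted p = 0.0136) and the collagen galactosyltransferase gene Colgalt1 by 0.64 (0.0472). Of 3 dimmer Colgalt1 probe sets, 1 fell (-0.95, 0.0417) and the other two did not pass (0.522 and 0.336).

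Without parental replicate 1 or 2, P3h1 did not pass (adjusted p = 0.151 or 0.0825), nor did Colgalt1 (0.283 or 0.173), which also missed without clone I (0.0944) or either clone II array (0.0844 and 0.0896) and with arrays centred on their medians (0.153). The collagen chaperone gene Serpinh1, named after its value was seen, gave -0.58 (0.207). Of 11 tested export genes only Sec24d, a coat component of the vesicles that carry procollagen, passed, falling by 1.34 (adjusted p = 0.00645, and 0.0989 without parental replicate 1). The list median was 0.10. Fitted without a filter, neither Colgalt1 (0.0584) nor, among the genes below, Ddr1 (0.0556) or Ogn (0.056) passed.

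Outside the cell, of 3 tested propeptide-processing genes, Bmp1, the main C-propeptide protease, fell by 1.52 (adjusted p = 0.013) on its brighter probe set and not on another (-0.79, 0.246), and the call was lost without parental replicate 1 (0.128) or 2 (0.0909). Furin (-0.56, 0.164) and the enhancer gene Pcolce (-0.06, 0.849) did not pass. The sign of Pcolce turned under some settings.

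Of 4 tested crosslinking genes 3 fell and 1 did not pass, with a list median of -4.63. Lox and Loxl1 had GLI1 means below the signal filter and were tested only through their bright parental arrays, so they had to differ, and the count and median do not stand as support. Both also fell in the fit without a filter. Lox, the founding lysyl oxidase, read 213, 244, 296 and 252 on the GLI1 arrays and 38096 and 29503 on the parental arrays, a 134-fold fall (log2 -7.07, SE 0.26, adjusted p = 3.3e-06). Loxl1 read 53.2 to 297 against 14603 and 11212, a 108-fold fall (adjusted p = 0.000661). Loxl2 fell 5.69-fold, from 24555 and 10708 to between 2346 and 3923 (adjusted p = 0.00213). For each of these genes every GLI1 array was below both parental arrays. Loxl3 gave -0.87 (adjusted p = 0.111, and 0.0123 without the array with no clone named). Without parental replicate 1 or 2, 2 of the 3 genes still tested fell.

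Of 7 tested genes for fibril partners, 6 fell and 1 rose, with a list median of -2.54. Bgn and Fmod passed the filter only through their parental arrays, and the other falls numbered 4. Fn1, the fibronectin on which collagen fibrils are laid down, read 10675, 10743, 11357 and 17846 on the GLI1 arrays and 70412 and 73320 on the parental arrays, and fell by 2.54 (SE 0.23, adjusted p = 0.000306). Biglycan (Bgn), a small proteoglycan that binds fibrils, fell by 5.81 (0.00369), and Abi3bp, a matrix protein gene, by 1.93 (0.00858). Ogn fell on its brightest probe set (-4.22, 0.0456) and missed the threshold on 2 others (0.067 and 0.131). Sparc (-3.48, 0.02) and Fmod (-1.92, 0.0438) fell as well, both named after their values were seen. Sparc missed the threshold without parental replicate 1 (0.0881) or 2 (0.159). Fmod missed it without a filter (0.0768), under median centring (0.0539) or quantile normalization (0.0588), and without the array with no clone named (0.0528), clone I (0.0571) or clone II replicate 2 (0.0573). Comp, a cartilage matrix gene, rose by 2.16 (adjusted p = 0.0136). The parental mean of Comp lay below the signal filter, so it was tested only through its GLI1 arrays and had to differ. Its adjusted p and its place as the only rise of this list do not stand as support. Leaving out parental replicate 1 left 1 fall and no rise, and leaving out parental replicate 2 left 3 falls. Without parental replicate 1 the adjusted p was 0.0561 for Bgn, 0.134 for Abi3bp and 0.14 for Comp.

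Of 5 tested collagen receptors 4 fell and 1 did not pass, with a list median of -0.85. Itga1, the integrin chain that binds collagen with Itgb1, read 650 to 1499 on the GLI1 arrays and 24206 and 21892 on the parental arrays, and fell 26.2-fold (adjusted p = 9.06e-05). Itga11, whose integrin prefers fibrillar collagen, read 91.6 to 272 against 2194 and 1281 and fell by 3.25 (adjusted p = 0.00479). It passed the filter only through its parental arrays, and the other receptor falls numbered 3. The shared beta chain Itgb1 fell by 0.85 (0.0081) and the collagen receptor kinase gene Ddr1 by 0.84 (0.0458) on its brighter probe set and not on another (-1.23, 0.06), while its relative Ddr2 gave 0.19 (0.65). With either parental array left out, 1 of the 4 genes still tested fell. Itgb1 was at 0.0697 without parental replicate 1 and 0.0834 without parental replicate 2. Ddr1 missed the threshold without any of the arrays other than that with no clone named (0.0557 to 0.234) and under median centring (0.0792).

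Of 6 tested genes for collagen breakdown and its inhibitors 3 fell and 3 did not pass, with a list median of -1.40. Mmp14, a membrane collagenase, fell by 1.75 (adjusted p = 0.00325), and the inhibitor genes Timp1 by 1.87 (0.00747) and Timp2 by 1.05 (0.00806). With either parental array left out 1 fall was called. Without parental replicate 1 Mmp14 was at 0.0587 and Timp2 at 0.0859, and without parental replicate 2 Timp1 was at 0.0873 and Timp2 at 0.0737. The gelatinase gene Mmp2, named after its value was seen, gave 0.04 (0.951).

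Of 20 tested genes for regulators of collagen transcription 6 fell, 1 rose and 13 did not pass, with a list median of -0.09. Of the falls, Tgfb3 passed the filter only through its parental arrays, and the others numbered 5. Besides Tgfb3, the ligand gene Tgfb2 read 870 to 1690 on the GLI1 arrays and 9703 and 11462 on the parental arrays and fell by 3.32 (SE 0.30, adjusted p = 0.000335). Egr1, an early response factor that can activate Col1a2, fell by 2.27 (0.00379, and 0.0621 without parental replicate 1), and Klf4 rose by 1.80 (0.0031). The other falls, named after their values were seen, were Ccn2 (-4.55, 0.00729), Tgfb1 (-1.29, 0.0256) and Smad3 (-0.81, 0.0374). Without parental replicate 1 or 2 the adjusted p was 0.0805 or 0.0645 for Ccn2, 0.178 or 0.139 for Tgfb1, and 0.227 or 0.176 for Smad3. Without clone II replicate 2 Tgfb1 was at 0.0516 and Smad3 at 0.0559. Smad3 also missed the threshold without clone I (0.0834) or clone II replicate 1 (0.0704) and under median centring (0.0802). The genes Nfya (-0.08, 0.882), Nfyb (0.05, 0.926), Nfyc (-0.13, 0.745) and Sp1 (0.13, 0.7), whose proteins bind CCAAT or GC boxes, did not pass. They were named after their values were seen, are not all such factors, and their part in the falls was not tested. Sp3 lay below the filter. Leaving out parental replicate 1 left 2 falls and leaving out parental replicate 2 left 3.

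**Figure D4:**
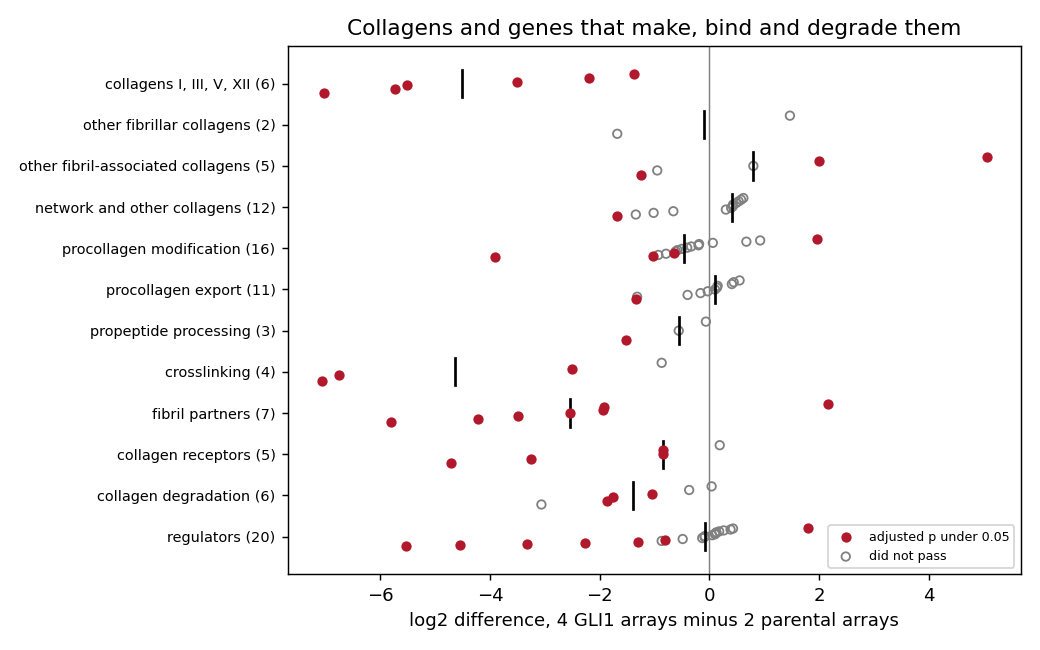
Log2 difference of the 4 GLI1 arrays minus the 2 parental arrays (horizontal axis) for each tested gene of the collagen lists (rows, with the number tested), filled where the limma adjusted p is under 0.05, with a bar at each list's median. The medians are -4.50 for the collagen genes described here and 0.10 for procollagen export. That of crosslinking, -4.63, does not stand as support, since Lox and Loxl1 were tested only through their parental arrays.

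The filter on mean signal kept out genes that were bright in parental cells and nearly dark in GLI1 cells. Of 33 genes of these lists below it, a fit without a filter gave 5 falls and 1 rise, all chosen for mention after their values were seen. Postn, which encodes the collagen-binding protein periostin, read 35847 and 24406 on the parental arrays and 5.7 to 20.7 on the GLI1 arrays (adjusted p = 4.68e-05). Its fold depends on the added constant, at 705 with 32 added to each signal. The collagen chain Col8a1 read 7482 and 1981 against 21.3 to 252 (adjusted p = 0.0063), and tenascin C, Tnc, read 2308 and 1888 against 29.5 to 240 (0.00962). The collagenase gene Mmp13 (0.0267) and Scx, a tendon transcription factor gene that can activate Col1a1 (0.017), fell too. Col13a1, a membrane collagen, rose from 13.7 and 5.2 to between 131 and 1204 (adjusted p = 0.0167, and 0.0516 with 32 added).

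Markers of cell types that make or lack fibrillar collagen moved with the collagen falls in part, and their part in the result was not tested. Of 9 fibroblast markers 3 were tested: Ogn fell (log2 -4.22, adjusted p = 0.0456), while neither Fbln1 (0.13, 0.887) nor Pdgfra (-0.06, 0.95) passed, and their signs turn under some settings. Ogn missed the threshold without clone I (0.0879), the array with no clone named (0.0548), parental replicate 1 (0.241) or parental replicate 2 (0.183). The summed signal of the 9 was 7204 to 14481 on the GLI1 arrays and 22262 and 24514 on the parental arrays. Of this, Ogn alone read 210 to 3525 on the GLI1 arrays and 14574 and 16736 on the parental arrays. The gap in the sum is thus mostly that of Ogn and does not show a fall of fibroblast markers in general. The general fibroblast genes Dcn, Lum, Thy1 and Pdgfrb lay below the filter on average, with no array above 814. Thy1 and Pdgfrb had every GLI1 array below both parental arrays, while Dcn and Lum overlapped. Fitted without a filter, neither Thy1 (-1.63, adjusted p = 0.359) nor Pdgfrb (-1.55, 0.166) passed. Of the other markers below the filter, Fbln2 overlapped and Dpt had every GLI1 array above both parental arrays. Of 6 smooth muscle and myofibroblast markers 5 were tested and 3 fell: Acta2 (log2 -3.35, adjusted p = 0.0021), Tagln (-4.87, 0.0028) and Cnn1 (-2.70, 0.00387, and 0.0579 without parental replicate 2).

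The summed smooth muscle signal was 2485 to 5589 on the GLI1 arrays against 29840 and 50814 on the parental arrays, while Myh11 (-0.30, 0.692) and Des (-0.10, 0.896) did not pass. The 7 epithelial markers summed to 1369 to 8853 on the GLI1 arrays and 2127 and 2524 on the parental arrays, and neither Epcam (1.15, 0.281) nor Krt8 (0.49, 0.783) passed. In the GLI1 arrays outside clone II, set against parental cells, both rose, Epcam by 2.15 (adjusted p = 0.00584) and Krt8 by 2.07 (0.00359). In clone II set against parental cells neither passed, with a list median of -0.47. The epithelial sums of the clone II arrays, 1671 and 1369, lay below both parental sums. Of 5 immune markers 3 were tested, and Cd14 fell by 1.83 (0.0301), with sums of 1013 to 2213 against 2959 and 3070. That call was lost without parental replicate 1 (0.235), parental replicate 2 (0.119), clone I (0.0675) or clone II replicate 2 (0.0549). Ptprc, the defining marker of blood cells, was at 14.1 to 81.4 on all arrays. The endothelial markers on the array summed to 481 to 761 over all arrays, and none of them was tested. The 4 osteoblast markers, all below the filter, summed to 1894 with no clone named, 793 in clone I, and 931 and 318 in clone II, against 292 and 402 on the parental arrays. Of these Ibsp, chosen for mention after its values were seen, read 1495, 441, 594 and 65.9 on the GLI1 arrays in that order and 17.5 and 24.5 on the parental arrays. Fitted without a filter it was higher by 4.27 (adjusted p = 0.047, and 0.0773 with 32 added). In the same fit Alpl (1.36, 0.6), Dmp1 (-0.598, 0.677) and Bglap (-0.245, 0.912) did not pass. The gap in the osteoblast sum is thus mostly that of Ibsp and not a rise of osteoblast markers in general.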

How the data were processed

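Expression was measured on 6 arrays. The authors deposited a linear intensity for each probe set on each array, from MAS5 as the submitters' processing notes say. The MAS5 version and the genome build are not given in the sources used here. Detection calls were not used, so low signals are not called absent.

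Signals were floored at 1 before log2. The table held 31099 probe sets, 57 of them controls that were left out. Those whose mean log2 signal exceeded the 40th percentile (8.33, or 322 in linear signal) were tested. limma 3.58.1 (R 4.3.3; lmFit, eBayes with an intensity trend) was run two-sided, with 4 residual degrees of freedom for GLI1 against parental. Clone comparisons came from a model of 3 levels with 3 residual degrees of freedom. The procedure was tested on simulated data. Differences without a fold are in log2 units.

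The platform annotation gave 20826 probe sets 1 symbol, 436 several and 9780 none. The members and lists were chosen with earlier results of these data known. Each gene is represented by its tested probe set of highest mean. From a list, at most 4 called genes were named by smallest adjusted p, and every tested gene where 5 or fewer were tested, besides the 5 genes of most similar profile. Genes outside this rule are marked in the text as named after their values were seen. Of 53 genes named by this rule, 13 had other tested probe sets. Alternatives changed the scaling, offset, filter, variance model, minimum fold and arrays entered.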

Additional observations from a re-analysis of the deposited data

Results flagged for a closer look

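Of 66 groups of 4 GLI1 arrays examined among the genes named above, 6 had an array whose gap to the nearest other, divided by the range on the log2 scale, was beyond Dixon's critical value of 0.829. Chance gives about 1 in 20 such groups. None of the 13 probe sets of Col1a1, Col1a2, Col3a1, Col5a1, Col5a2, Col5a3 and Col12a1 had a GLI1 array beyond it. The array with no clone named was highest in Col24a1 (0.939) and Col9a2 (0.877). Clone I was lowest in Col4a5 (0.907) and Ddr2 (0.951). Clone II replicate 2 was highest in Fn1 (0.879) and Tgfb2 (0.834).

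In limma 3 of the named genes differed when clone II was set against the other GLI1 arrays. Bgn was lower in clone II by 2.86 log2 units (log2 -2.86, adjusted p = 0.0371), with signals of 85.8 and 66.3 against 589 and 511. Krt8 was lower (log2 -3.17, adjusted p = 0.0157), with signals of 539 and 599 against 4284 and 6092. Ogn was higher (log2 3.98, adjusted p = 0.00177), with signals of 3525 and 3160 against 210 and 213.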

How the results depend on the processing

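Against parental cells, the differences of the 10 collagen probe sets were recomputed 163 times over the alternatives: none changed sign and 15 missed the threshold. The count of called collagen probe sets was 10 under median centring, quantile normalization, an offset of 32 and averaging of the clone II arrays, 11 without a filter, 9 without an intensity trend, 9 of 9 at the 60th percentile, 8 with a 2-fold minimum and 7 to 10 when an array was left out. It was 6 without the arrays of highest GAPDH ratio. Calls over all probe sets then numbered 158 rises and 168 falls, and the cause was not tested. In clone II set against the other GLI1 arrays the count was 0, and 0 to 1 when an array was left out.

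With the replicate number as a replicate block the count was also 10, and 10 for clone II against parental cells (9 without it, the dimmer Col5a1 probe set being gained at an adjusted p of 0.0415). The numbers do not pair samples by design, and Ogn alone among the named genes lost its call (adjusted p = 0.0586). Median centring moved the median over all probe sets from 0.00 to 0.17 and the calls to 1454 rises and 944 falls, against 1087 and 1351. Quantile normalization gave 1258 and 1318.

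Small differences changed sign, the cause of which was not tested. Pcolce gave 0.10 under median centring and -0.16 to 0.032 when an array was left out. Pdgfra gave 0.10 under median centring, 0.089 under quantile normalization, 0.25 without the arrays of highest GAPDH ratio, 0.13 with clone II averaged and -0.36 to 0.31 when an array was left out. Des gave 0.065 and 0.044 under those scalings and, when an array was left out, -0.42 to 0.23. When an array was left out, Fbln1 ran from -0.21 to 0.42, Krt8 from -0.12 to 1.04, Myh11 from -0.68 to 0.081 and Aif1 from -0.89 to 0.40, and Csf1r reached 0.49. For clone II against the other GLI1 arrays, Col5a1 ran from -0.0092 to 0.67 on its brighter probe set and from -0.79 to 0.31 on the other (0.16 without the arrays of highest GAPDH ratio), and the dimmer Col5a2 probe set from -0.018 to 0.39. Signals near the background, as for Col5a3 and Postn on the GLI1 arrays, limit how well large folds are known.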
